A study of Mus musculus with 22 samples.

Results

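The synaptic vesicle and SNARE genes of mouse motor cortex are described here across genotype and side. They were chosen by symbol alone: the VAMP, syntaxin, syntaxin-binding, SNAP-25, synaptotagmin, synapsin, complexin, SV2 and NSF attachment protein families, with Nsf, Syp, Rims1, Unc13a and Bsn. The rule found 65 of the 15297 genes of the deposited table, which stand on 559 of its 112460 features. A feature is a stretch where RNA 5' ends pile up, placed on the genome and classed by the part of the gene it falls in.

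The BERKO mice, which lack estrogen receptor beta (the product of Esr2), were set against wild type (WT) mice. Both groups were C57BL/6 males of 16 to 20 weeks, and the sources used here do not say how the BERKO allele was made or whether the WT mice were littermates. Primary motor cortex (M1) was sampled on the right and on the left of 5 BERKO and 6 WT mice, which gave 22 biopsies. From each biopsy 10 ng of RNA went into STRT sequencing, which marks the 5' ends of transcripts during reverse transcription. Read counts were summed over lanes and sides per mouse, and levels are CPM, the reads of a gene scaled to a fixed total of gene reads with TMM factors.

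Synaptic vesicles fuse with the plasma membrane when the vesicle SNARE VAMP2 zips up with the membrane SNAREs syntaxin and SNAP-25. Munc13 (Unc13a) prepares the assembly, complexins clamp it, and synaptotagmin-1 senses the calcium that triggers release. NSF and its attachment proteins then pull the spent complex apart, so that the SNAREs can be used again.

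Gene reads per mouse ranged from 968219 to 1626675 in BERKO and from 1353208 to 2722667 in WT mice. On the first principal component, 3 WT libraries stood apart: both biopsies of WT replicate 1 and the left biopsy of WT replicate 2. The library codes in the column names start with different letters for WT and BERKO biopsies. The labels do not say what the letter stands for, and it cannot be told apart from genotype. The right biopsy of WT replicate 3 had 3.96% of its reads in introns, against 1.63 to 2.45% in the other biopsies. Mitochondrial reads made up 0.678 to 0.908% of the reads of BERKO mice and 1.30 to 1.95% of those of WT mice, averaged over sides. Esr2 had 0 reads in 19 of the 22 biopsies. Its reads in BERKO mice lay in the left biopsies of replicate 3 (6 reads) and replicate 5 (4 reads). In WT mice they lay in the right biopsy of replicate 1 (3 reads). Counts this low, present in both genotypes, leave the genotype labels untested. Neuron markers had reads for 10 of 10 genes and summed to 7408 to 8491 CPM in BERKO and 6449 to 8557 CPM in WT mice. Striatal neuron markers summed to 218.5 to 438 CPM in BERKO and 127.9 to 322.8 CPM in WT mice, with Drd1a at 0 reads.

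The members held 1.77 to 2.07% of the gene reads of BERKO mice and 1.74 to 1.96% of those of WT mice. Reads were found for 62 members. No tag of Stx19, Syt15 or Syt6 was counted (0 reads). A count of 0 leaves room for a level of 3.10 CPM in the shallowest mouse (BERKO replicate 5) and 1.10 CPM in the deepest (WT replicate 3). Intervals and floors cover counting error only. A low-count filter left 55 members for the genotype test. Of the other 10 members, those with reads were Stx2 (5 reads in all), Syt9 (22), Syn3 (34), Syt14 (46), Stx3 (74), Sv2c (117) and Syt10 (147).

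The tags were concentrated in few genes. The 5 most abundant members (Syt1, Cplx2, Syt11, Cplx1 and Snap25) held 55.1% of the members' CPM, and the top 10, which add Nsf, Napb, Syp, Napa and Snap47, held 77.7%. Synaptotagmins made up 31.6%, complexins 20.6% and the SNARE disassembly genes 17.1%. A tagged 5' end does not scale with transcript length, so this order is one of tag counts and was not divided by length. Neighbours in it, such as Snap25 (1120 ± 163 CPM in BERKO and 1076 ± 301 CPM in WT mice; SD, n = 5 and 6) and Nsf (1005 ± 102 CPM in BERKO and 1171 ± 192 CPM in WT mice), differed by less than their spread over mice.

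**Figure D1:**
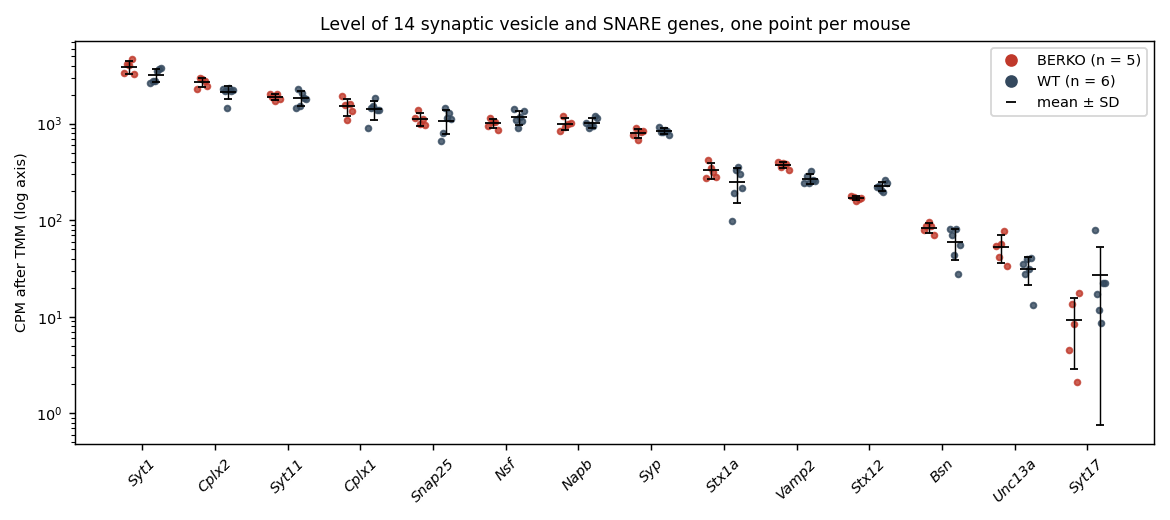
Level of 14 members in CPM after TMM (log axis), with a point per mouse and bars for the mean ± SD of 5 BERKO mice (red) and 6 WT mice (dark). Vamp2 lies higher in every BERKO mouse (332 to 405 CPM) than in any WT mouse (at most 324.9 CPM), Stx12 lies lower in every BERKO mouse, and the genotypes overlap in the other 12 genes.

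The members differed in where their tags lay. For 43 of the 62 members with reads, over 50% of the reads lay in start features, meaning features of the classes 5' UTR and upstream. For 12 members most reads lay instead in 3' UTR features. These were Bsn (94.6% of its reads), Stx16 (93.7%), Syt7 (93.4%), Vamp2 (79.4%), Syn1 (72.4%), Stxbp5 (71.8%), Syn2 (71.4%), Unc13a (66.3%), Stxbp5l (59.2%), Syt13 (58.0%), Syt9 (54.5%) and Stx2 (100% of 5 reads). All 400 reads of Rims1, an active zone scaffold, lay in introns. Syn1, Syn2 and Syt13 were singled out after their values were seen.

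The stretches of 100 bases just upstream of the RefSeq start are shown for 4 members that differ in this respect. Stx12 and Cplx2 had 96.6% and 84.3% of their reads in start features, against 12.9% for Unc13a and 0% for Bsn. The sequences are in GRCm38.p6, not in the build of the counts (mm9), and run 5′ to 3′ on the strand of the gene. Capitals mark the GC box GGGCGG on either strand, the motif bound by Sp1-type factors.
Stx12, chr4:132884459-132884558 (minus strand): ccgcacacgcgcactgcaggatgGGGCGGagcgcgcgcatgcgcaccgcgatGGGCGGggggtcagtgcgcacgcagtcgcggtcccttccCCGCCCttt
Cplx2, chr13:54302456-54302555 (plus strand): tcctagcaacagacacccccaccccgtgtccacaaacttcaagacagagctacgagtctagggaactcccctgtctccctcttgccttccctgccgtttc
Unc13a, chr8:71671758-71671857 (minus strand): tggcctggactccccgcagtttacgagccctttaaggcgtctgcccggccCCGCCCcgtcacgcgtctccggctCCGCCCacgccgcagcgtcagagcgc
Bsn, chr9:108190384-108190483 (minus strand): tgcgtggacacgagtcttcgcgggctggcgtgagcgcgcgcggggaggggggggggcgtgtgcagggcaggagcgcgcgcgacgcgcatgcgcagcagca
The Stx12 stretch holds 3 GC boxes and that of Unc13a holds 2, whereas those of Cplx2 and Bsn hold none. G and C make up 75% of the Stx12, 57% of the Cplx2, 73% of the Unc13a and 77% of the Bsn stretch. In the 250 bases upstream of the start, a GC box on either strand was found in 38 of the 64 promoters of the 51 members matched in the RefSeq table (59.4%), against 32.7% of all 32851 promoters. The full estrogen response element, the letters GGTCA and TGACC with 3 bases between them, was in the window of none of the 51 members and in 0.0639% of all promoters. The cAMP response element TGACGTCA was found in 2 of the 64, those of Stxbp3 and Syn1 (3.12%, against 1.55% of all promoters), and the TATA box TATAAA in 4 of the 64, from Stx2, Stx3 and Sv2b (6.25%, against 12.4% of all promoters). These motifs do not contain each other, and a match is a string of letters only.

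The comparison of BERKO with WT mice asks which transcripts differ when estrogen receptor beta is missing. None of the 55 members passed the threshold (edgeR quasi-likelihood test, Benjamini-Hochberg adjusted p under 0.05 over 9025 genes), where 0.0776% of all genes did. At an unadjusted p under 0.05 there were 6 members, 10.9% of those tested, against 9.92% of all genes, so the members' share lay near the background. Of these, 4 were higher in BERKO mice (7.27%, against 5.27% of all genes) and 2 were lower (3.64%, against 4.64% of all genes). Over the 55 members, 35 had a positive log2 fold change and the median was 0.09, where the median of all genes was -0.01 and 49.2% were positive. Without the 3 WT libraries that stood apart, 28 of 53 members were positive and their median was 0.01. The tilt in sign was smaller without those libraries, and their part in it was not tested. With spike-in scaling, 44 of 55 members were positive with a median of 0.31, where 68.7% of all genes were positive and their median was 0.19. In bulk tissue, a different number of neurons and a different amount of RNA per neuron cannot be told apart.

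Vamp2, the vesicle SNARE of fast release, came closest to the threshold. It had 405, 355, 390.4, 387 and 332 CPM in the 5 BERKO mice, against 241, 289, 240.1, 325, 258 and 255 CPM in the 6 WT mice. Every BERKO mouse was above every WT mouse. Its log2 fold change was 0.48 ± 0.13 (SE; adjusted p = 0.179, edgeR quasi-likelihood test), and DESeq2 placed it past the threshold (log2 fold change 0.48, adjusted p = 0.0463), as the only member called in any alternative for whole genes. DESeq2 called more genes in general, with 21 higher and 9 lower of 7846 genes, against 4 and 3 of 9025 in edgeR. Across all genes, 0.731% had every BERKO mouse above every WT mouse and 0.598% had every one below, against 1 member (1.82%) in each direction. Most of the Vamp2 tags came from a single 3' UTR feature on chromosome 11 (mm9, position 68905388, plus strand), which held 78.1% of its reads. That feature had 286 to 313 CPM in BERKO and 179 to 233 CPM in WT mice. The 5' UTR feature at position 68902091 had 16.9 to 51.8 CPM in BERKO and 15.1 to 38.9 CPM in WT mice, with a log2 fold change of 0.12 ± 0.35. The genotypes were separate in the 3' UTR feature and overlapped in the 5' UTR feature. How often 3' UTR features of all genes separate in this way was not counted. In that class 81.2% of all genes tested had a positive log2 fold change.

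Cplx2, a complexin of excitatory terminals that clamps the SNARE complex, had 2265, 2955, 2914, 2742 and 2476 CPM in BERKO mice, against 2308, 2199, 1453, 2356, 2163 and 2241 CPM in WT mice. BERKO replicate 2 lay within the WT range, and WT replicate 3 lay far below the other WT mice. The log2 fold change was 0.33 ± 0.12 (adjusted p = 0.36, edgeR), and it was 0.25 without WT replicate 3. Its main 5' UTR feature on chromosome 13 (mm9, 54472842, plus strand), with 82.1% of its reads, gave 0.32 ± 0.12. A second 5' UTR feature downstream at 54480017 had 38.1, 90.6, 94.9, 56.7 and 71.4 CPM in BERKO mice, against 41.7, 44.0, 32.8, 40.2, 33.2 and 19.4 CPM in WT mice. That start differed by 0.99 ± 0.27 on the log2 scale (adjusted p = 0.17 over 13046 features, edgeR), and 4 of 5 BERKO mice were above every WT mouse. Transcripts of Cplx2 share up to 263 bases at 95.4% identity with other genes, so part of its reads may be shared. Cplx1, the other abundant complexin, had 1091 to 1935 CPM in BERKO and 897 to 1863 CPM in WT mice, with a log2 fold change of 0.09 ± 0.16.

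Unc13a, the priming factor Munc13-1, had 54.1, 42.1, 56.6, 77.7 and 33.2 CPM in BERKO mice, against 35.3, 27.8, 40.0, 31.0, 40.8 and 13.2 CPM in WT mice. All but BERKO replicate 6 lay above the highest WT mouse, and the log2 fold change was 0.72 ± 0.29 (adjusted p = 0.395, edgeR). A 495-base stretch of its transcripts is identical in Colgalt1, so its reads may be shared. The other active zone members were Bsn, the scaffold bassoon, with 69.5 to 94.9 CPM in BERKO and 27.8 to 81.0 CPM in WT mice (0.48 ± 0.24), and Rims1, with 9.45 to 14.5 CPM in BERKO and 8.68 to 62.8 CPM in WT mice (-0.94 ± 0.47). The highest Rims1 value came from WT replicate 3, with 90.8 CPM in the right biopsy, the one with a high intron share, and 26.9 CPM in the left. Without that mouse the Rims1 log2 fold change was -0.28 ± 0.46.

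Syt1, the calcium sensor of fast release and the most abundant member, had 3313, 4137, 4009, 4670 and 3290 CPM in BERKO mice, against 2659, 2800, 2749, 3531, 3725 and 3752 CPM in WT mice. The groups overlapped, with 3 of 5 BERKO mice above the highest WT mouse. Its log2 fold change was 0.28 ± 0.12 (adjusted p = 0.448, edgeR). Syt17, a synaptotagmin family member, was lower, with 2.10 to 17.5 CPM in BERKO and 8.69 to 79.5 CPM in WT mice. Its log2 fold change of -1.52 ± 0.57 (adjusted p = 0.374, edgeR) rested in part on WT replicate 1, which lies apart on the first component, and was -0.80 without that mouse and -0.50 without all 3 libraries that lie apart. Of the 11 synaptotagmins tested, 9 had a positive log2 fold change (median 0.17), and 7 did without those libraries. Syt11, a synaptotagmin that does not bind calcium, had 1732 to 2044 CPM in BERKO and 1469 to 2301 CPM in WT mice (0.04 ± 0.12). It shares up to 283 bases at 99.6% identity with transcripts of 258 other genes, so its reads may be shared.

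Stx12, a syntaxin of recycling endosomes also called syntaxin-13, was the member with the lowest p among those with lower levels. It had 177, 175, 158.5, 165 and 169 CPM in BERKO mice, against 219.7, 226, 204, 198, 264 and 242 CPM in WT mice. Every BERKO mouse was below every WT mouse. The log2 fold change was -0.42 ± 0.14 (adjusted p = 0.315, edgeR), with -0.44 ± 0.19 on the right and -0.45 ± 0.21 on the left. Nearly all of its tags came from a single 5' UTR feature on chromosome 4 (mm9, 132440336, minus strand), which gave -0.45 ± 0.14. With scaling to the spike-in RNA, which moves the median of all genes to 0.19, the log2 fold change of Stx12 was -0.22 ± 0.21.

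Among the SNAREs of the plasma membrane, Stx1a had 273 to 419 CPM in BERKO and 98.6 to 359 CPM in WT mice (0.40 ± 0.27). Snap25 gave 0.06 ± 0.17 and Snap47, a SNAP-25 relative, gave 0.06 ± 0.13. A 307-base stretch of Snap47 is identical in Jmjd4, so its reads may be shared. Snap25 had 1137, 1378, 988, 1124 and 972 CPM in BERKO mice, against 661, 796, 1469, 1137, 1282 and 1112 CPM in WT mice. The lowest WT mice were replicates 1 and 2, which hold the libraries that lie apart. All 6 VAMP genes tested had a positive log2 fold change (median 0.17). Apart from Vamp2 (0.48 ± 0.13), each of these estimates lay within its standard error of 0, from 0.04 ± 0.15 (Vamp4) to 0.22 ± 0.78 (Vamp5). Without the 3 WT libraries that lie apart, 4 of 5 were positive. The sum of the family was 666 to 867 CPM in BERKO and 491 to 712 CPM in WT mice. Of this, Vamp2 held 332 to 405 CPM in BERKO and 240.1 to 324.9 CPM in WT mice. Stx7, a late endosome syntaxin, had 237 to 344.5 CPM in BERKO and 294 to 360.4 CPM in WT mice (-0.16 ± 0.13).

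The disassembly genes had lower point estimates in all 4 cases (3 of 4 without the WT libraries that lie apart, and 1 of 4 with spike-in scaling), and none passed the test. Nsf, the ATPase that unwinds spent SNARE complexes, had 866 to 1137 CPM in BERKO and 912 to 1436 CPM in WT mice (-0.22 ± 0.13). Napb, which encodes beta-SNAP, gave -0.05 ± 0.12, and Napa, which encodes alpha-SNAP, gave -0.09 ± 0.13. Syp, the vesicle membrane protein synaptophysin, had 671 to 909 CPM in BERKO and 754 to 916 CPM in WT mice (-0.07 ± 0.11). With spike-in scaling the sign of Napa, Napb, Napg, Syp and Stx7 turned positive. Snap91, the clathrin adaptor AP180, had 49.8 to 105 CPM in BERKO and 39.9 to 58.3 CPM in WT mice (0.45 ± 0.23).

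**Figure D2:**
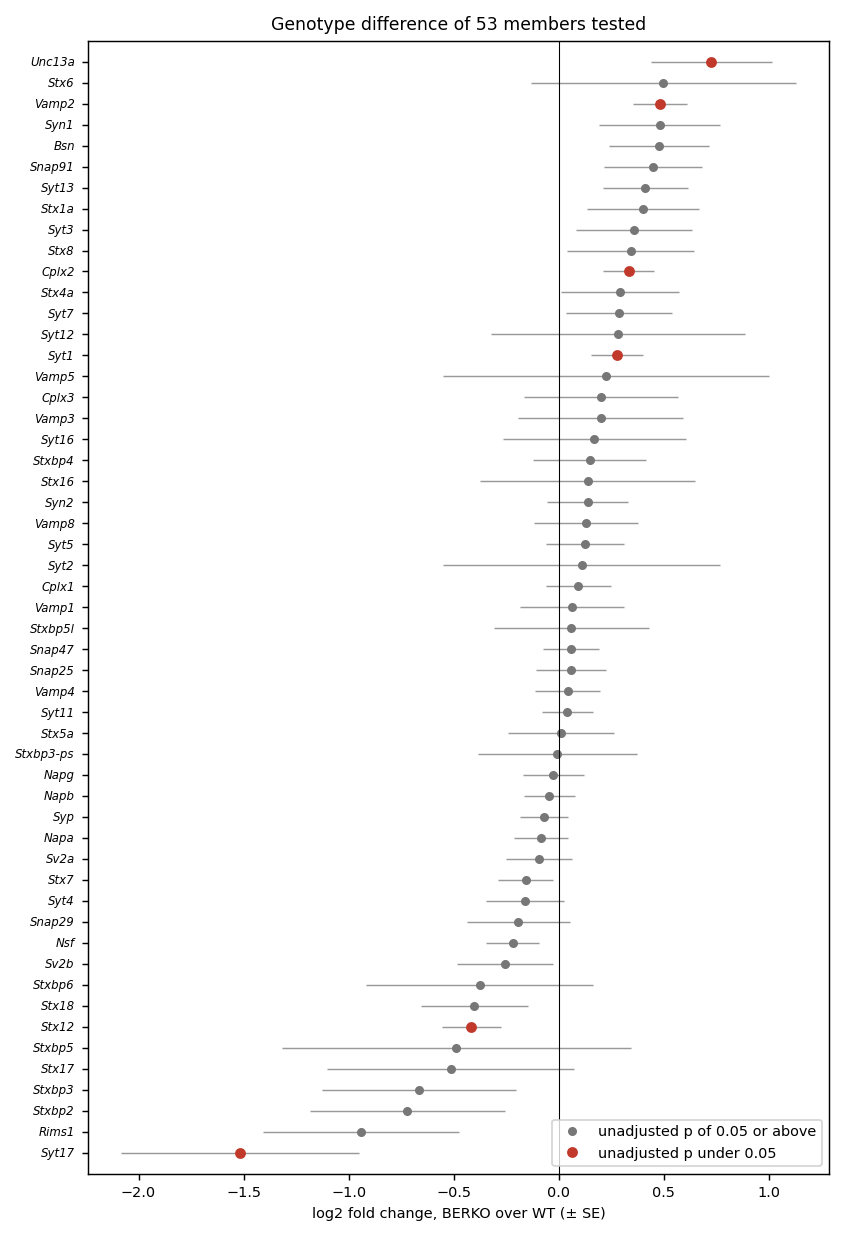
Log2 fold change of BERKO over WT for 53 of the 55 members tested, with the standard error as a bar and the 6 members at an unadjusted p under 0.05 in red. Positive values lie to the right of the line at 0; 33 of the members shown have a positive value and none passes the adjusted threshold.

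Splitting the counts by where the tags lie gave a different picture for the same genes. In start features, 43 members were tested and 20 had a positive log2 fold change, with a median of -0.07, where the median of all 6777 genes was -0.11 and 37.7% were positive. In 3' UTR features, 26 members were tested, and 26 of 26 had a positive log2 fold change, from 0.06 to 0.86. Their median was 0.52, against 0.39 over all 1847 genes, of which 81.2% were positive. None of the members passed the threshold in either class (edgeR; 0.0443% of genes did in start features and 0% in 3' UTR features). At an unadjusted p under 0.05 there were 11 members in 3' UTR features (42.3%), where 15% of all genes were, and 6 in start features (14%), where 9.67% of all genes were. The library scale was that of all gene reads in both classes. Without the 3 WT libraries that stood apart, 25 of 26 members were positive in 3' UTR features (median 0.40, against 0.35 over all genes, of which 79.9% were positive) and 15 of 40 in start features. WT replicate 4 weighed on the calls: without it 20 of 1694 genes passed in 3' UTR features (1.18%), 2 of them members, among them Syt1 (0.79 ± 0.17, adjusted p = 0.0234, edgeR). With any other mouse left out, no member passed there, and 25 to 27 of 26 to 28 members were positive.

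In single genes, the start and the 3' UTR could have values of opposite sign. In start features Syp had 486, 623, 485, 519 and 588 CPM in BERKO mice, against 747, 634, 614, 657, 693 and 641 CPM in WT mice. Most BERKO mice lay below the WT mice, with BERKO replicate 3 inside their range (-0.30 ± 0.12). In its 3' UTR features Syp had 252, 254, 171, 255 and 232 CPM in BERKO mice, against 154, 174, 187, 189.6, 141 and 92.6 CPM in WT mice. Here 4 of 5 BERKO mice lay above every WT mouse (0.57 ± 0.22). Summed over all classes, Syp gave -0.07 ± 0.11. An 878-base stretch of Syp is identical in Gm14703, so its reads may be shared.

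Napa gave -0.15 ± 0.13 in start features and 0.84 ± 0.35 in 3' UTR features. Syt11 gave -0.27 ± 0.12 in start features and 0.50 ± 0.21 in 3' UTR features. Nsf gave -0.40 ± 0.13 in start features and 0.35 ± 0.29 in 3' UTR features. Its start tags were at 668, 744, 741, 756 and 656 CPM in BERKO mice, against 1135, 865, 705, 852, 882 and 1218 CPM in WT mice. WT replicate 3 was the only WT mouse within the BERKO range. Cplx2 differed from this, with 0.33 ± 0.13 in start features and 0.34 ± 0.21 in 3' UTR features. Snap25, with 94.3% of its reads in its start feature, gave 0.05 ± 0.16 and 0.06 ± 0.45.

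Of the 20 members tested in both classes, the 3' UTR value was above the start value in 20, and in 11 the start value was below 0 while the 3' UTR value was above 0. A test of the difference between the classes (edgeR interaction of genotype with class, 1248 genes with at least 10 reads in 5 mice in each class) called no gene (0%) and no member. At an unadjusted p under 0.05, 8 of the 21 members (38.1%) and 168 of the 1248 genes (13.5%) passed. The difference was positive for 21 of 21 members with a median of 0.60, where the median of all genes was 0.45 and 993 of 1248 were positive. The lowest p among members was that of Syt11, with a difference of 0.81 ± 0.25 (adjusted p = 0.302, edgeR), followed by Syp with 0.90 ± 0.28 (adjusted p = 0.302, edgeR). The direction of the members was thus also that of most genes in these libraries.

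**Figure D3:**
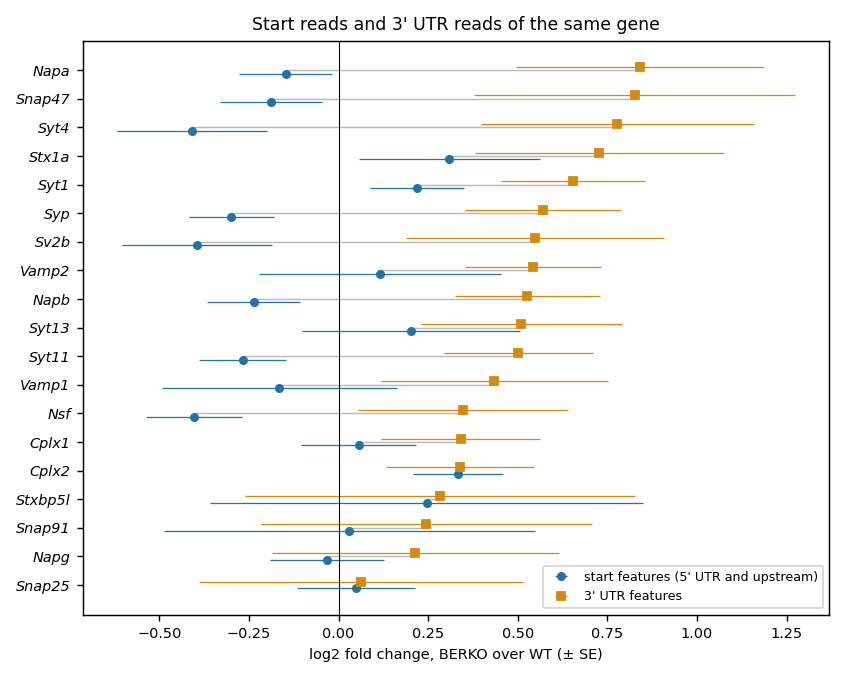
Log2 fold change of BERKO over WT (± SE) from start features (blue circles) and from 3' UTR features (orange squares) of 19 of the 20 members tested in both. The 3' UTR value lies to the right of the start value in all 19 genes shown.

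The same pattern stood in the shares of reads. Of the members' CPM, 3' UTR features held 20.0, 19.7, 19.8, 22.0 and 20.8% in the BERKO mice, against 14.4, 17.8, 14.3, 19.7, 14.7 and 12.2% in the WT mice. WT replicate 4 reached the BERKO range and the other 5 WT mice were below it. Over all endogenous features, averaged over sides, the share was 6.04 to 6.79% in BERKO and 4.19 to 6.38% in WT mice, so it was higher beyond these genes too. CDS features held 10.2 to 11.7% of all endogenous reads in BERKO and 7.30 to 10.7% in WT mice. The members' summed 3' UTR tags came to 3700 to 4570 CPM in BERKO and 2321 to 3887 CPM in WT mice, whereas their summed start tags came to 13170 to 15500 CPM in BERKO and 12850 to 15820 CPM in WT mice. The part of read position and depth in the gene-level differences of Vamp2, Unc13a and Bsn, whose tags are mostly 3' UTR, was not tested.

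**Figure D4:**
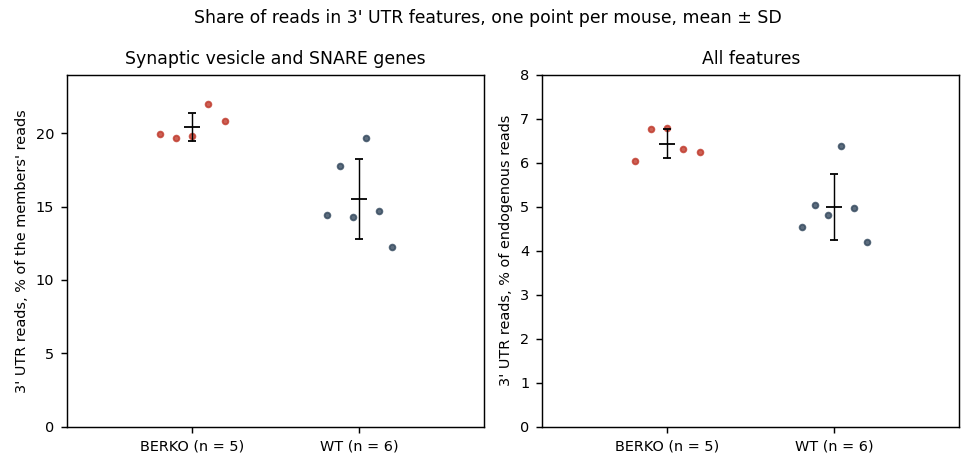
Share of reads in 3' UTR features per mouse, for the synaptic vesicle and SNARE genes (left, 19.7 to 22.0% in BERKO and 12.2 to 19.7% in WT mice) and for all features (right), with the mean ± SD of 5 BERKO and 6 WT mice. Both axes start at 0; WT replicate 4 is the WT mouse at the level of the BERKO mice in both panels.

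Single features were tested on their own for 130 features of members. None passed the threshold (0.13% of 13046 features did, edgeR), and 29 (22.3%) had an unadjusted p under 0.05, against 11.1% of all features. Of these, 22 were higher in BERKO mice (16.9%, against 6.85% of all features) and 7 were lower (5.38%, against 4.28%). Most of the higher ones were 3' UTR features, a class in which 81.2% of all genes tested were positive. The share over all features was not matched for class. Behind Vamp2, the lowest p was that of the Syt1 3' UTR feature on chromosome 10 (mm9, 107935730, minus strand), with 625, 614, 548, 746 and 603 CPM in BERKO mice, against 243, 324, 275, 580.3, 467 and 301 CPM in WT mice. Only WT replicate 4 reached the BERKO range (0.78 ± 0.19, adjusted p = 0.13). The main 5' UTR feature of Syt1 at 108448002 gave 0.22 ± 0.13. Sv2b, a vesicle glycoprotein named here after its values were seen, had a pair of 5' UTR features of similar size on chromosome 7 (mm9, minus strand). The one at 82454052 had 43.1 to 92.0 CPM in BERKO and 74.4 to 163 CPM in WT mice (-0.79 ± 0.24), and the one at 82453196 had 52.0 to 128 CPM in BERKO and 57.6 to 117 CPM in WT mice (-0.02 ± 0.25). The difference between these starts was not tested.

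On the right side alone, 0.065% of 7696 genes passed and none of the 52 members tested did. Vamp2 had 443, 412, 426, 429.7 and 363 CPM in right biopsies of BERKO mice, against 249, 336, 199.7, 307, 274 and 213 CPM in right biopsies of WT mice (0.65 ± 0.17, adjusted p = 0.217, edgeR). On the left side, 0% of 6616 genes passed (449 at an unadjusted p under 0.05), and Vamp2 had 232 to 367 CPM in BERKO and 189 to 343 CPM in WT mice (0.14 ± 0.20). For Vamp2 the genotype difference on the right exceeded that on the left by 0.54 ± 0.27 (adjusted p = 0.998, edgeR), so the sides were not shown to differ. Syt7, a slow calcium sensor, had the lowest p for this difference (0.92 ± 0.37, adjusted p = 0.998). It was higher on the right in 5 of 5 BERKO and 2 of 6 WT mice. A 385-base stretch of Syt7 is identical in Gm26859, so its reads may be shared. Syn2, a synapsin that tethers vesicles, followed with 0.86 ± 0.39. None of 8308 genes passed this test (0%), and 272 (3.27%) had an unadjusted p under 0.05, among them 2 members (3.77%). Most reads of Vamp2, Syt7 and Syn2 lay in 3' UTR features. By replicate, these features held 6.69, 7.53, 6.56, 7.81 and 6.60% of all endogenous reads in right BERKO biopsies. In left ones they held 5.38, 6.01, 7.02, 4.82 and 5.88%. WT mice had 5.50, 5.81, 4.72, 5.78, 4.87 and 3.69% on the right. On the left they had 3.57, 4.24, 4.92, 6.98, 5.08 and 4.68%. The part of read position in the side differences was not tested.

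Right was compared with left within mice. No gene of 8308 passed (0%; 479 at an unadjusted p under 0.05, which is 5.77%), and neither did any of the 53 members tested, of which 6 (11.3%) had an unadjusted p under 0.05, all higher on the right (3.37% of all genes were). Over all genes 56.2% had a higher estimate on the right, against 64.2% of the members. Within BERKO mice 5 members had an unadjusted p under 0.05 (9.43%, against 4.71% of all genes). Within WT mice 1 did (1.89%, against 4.25% of all genes). Of the 6 members over all mice, Stx1a had the lowest p, with 0.54 ± 0.14 (adjusted p = 0.382, edgeR). In BERKO mice it had 349, 469, 423, 327 and 368 CPM on the right, against 202, 342, 212, 249 and 159.6 CPM on the left, so the right biopsy was higher in 5 of 5 mice. In WT mice it was higher on the right in 4 of 6, with a median of 308 CPM on the right and 220.2 CPM on the left. The others were Stx16, a Golgi syntaxin (1.91 ± 0.64, right higher in 5 of 5 BERKO and 6 of 6 WT mice), Stx18, a syntaxin of the endoplasmic reticulum (0.65 ± 0.26), Bsn (0.54 ± 0.23), Syt1 (0.21 ± 0.10) and Snap25 (0.23 ± 0.11). The estimate and signs of Stx16 rest on few reads, 252 over all biopsies. Its left biopsies had 0 to 12.97 CPM in BERKO and 0.8639 to 11.43 CPM in WT mice. It had 0 CPM in the left biopsies of BERKO replicates 2 and 5, the latter with only 239058 gene reads. A 909-base stretch of Stx18 is identical in Gm42858, so the reads of Stx18 may be shared. Stx16 and Bsn had most of their reads in 3' UTR features, and the part of read position in their side differences was not tested. The letters of the library codes also differ between right and left biopsies and cannot be told apart from side.

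**Figure D5:**
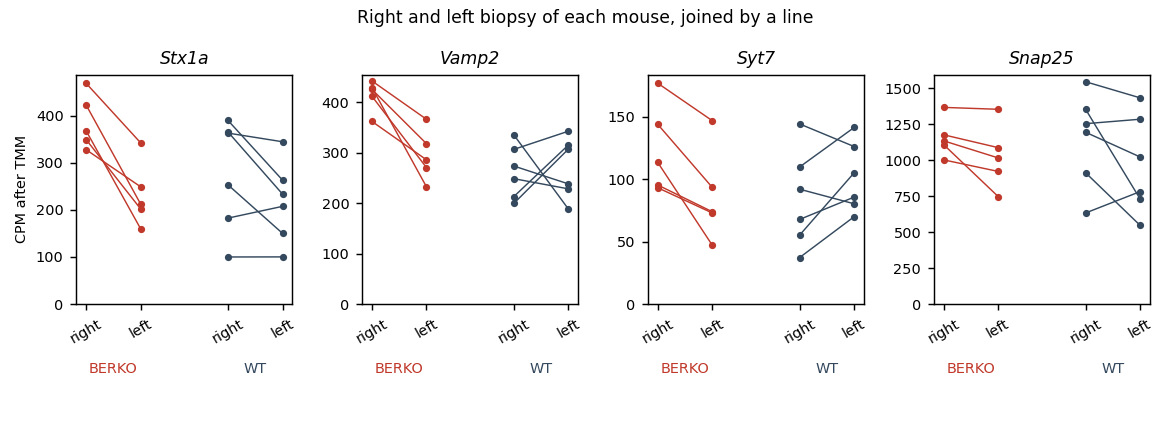
Level of Stx1a, Vamp2, Syt7 and Snap25 in the right and left biopsy of each mouse (CPM after TMM, axes from 0), joined by a line, for 5 BERKO mice (red) and 6 WT mice (dark). Right is above left in 5 of 5 BERKO mice in each of the 4 genes, and in WT mice in 4 of 6 for Stx1a, 3 of 6 for Vamp2, 2 of 6 for Syt7 and 4 of 6 for Snap25.

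Genes that act beside the members were read from the same genotype test, and none of them passed the threshold. Of the other active zone genes, 20 of 26 were tested and 14 had a positive log2 fold change (median 0.14), among them Tprgl, a vesicle protein also called Mover (0.79 ± 0.33), and Pclo, the scaffold piccolo (0.50 ± 0.22). Of the vesicle membrane proteins and transporters, 20 were tested, with a median of -0.05. In this group Slc17a7, the vesicular glutamate transporter VGLUT1, had 175 ± 34 CPM in BERKO and 104 ± 19 CPM in WT mice (SD, n = 5 and 6; log2 fold change 0.76 ± 0.18, adjusted p = 0.127, edgeR). Rab3c, a vesicle GTPase, had 406 ± 65 CPM in BERKO and 587 ± 168 CPM in WT mice (-0.53 ± 0.16), and Rab3a had 541 ± 67 CPM in BERKO and 409.6 ± 75 CPM in WT mice (0.40 ± 0.14). Of the endocytosis genes, 23 were tested (median 0.11), with Stam, an endosomal sorting protein, at -0.92 ± 0.25 and Pip5k1c, a lipid kinase of the presynapse, at 0.80 ± 0.22. The proton pump subunits (16 tested, 6 positive, median -0.15) and the SNAREs and SM proteins of other routes (17 tested, 6 positive, median -0.04) had medians below that of all genes.

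Markers of other cells were read in the same libraries, and none of these genes passed the threshold. The genotypes overlapped in the sum of every marker list except that of microglia. Of the general neuron markers, whose sums are given above, 9 of 10 tested genes had a positive log2 fold change, with a median of 0.23. At an unadjusted p under 0.05 (edgeR), 3 of these 10 were higher in BERKO mice, where 5.27% of all genes were. Excitatory neuron markers summed to 3624 to 5390 CPM in BERKO and 1963 to 4403 CPM in WT mice, with 7 of 8 tested genes positive. Inhibitory neuron markers summed to 1722 to 2278 CPM in BERKO and 1410 to 2052 CPM in WT mice, with 2 of 8 positive. Astrocyte markers summed to 8213 to 9998 CPM in BERKO and 5810 to 9048 CPM in WT mice (10 of 10 positive), and microglia markers to 1138 to 1403 CPM in BERKO and 664 to 1121 CPM in WT mice (8 of 10 positive). Oligodendrocyte markers summed to 5390 to 13860 CPM in BERKO and 2102 to 11690 CPM in WT mice (8 of 10 positive). Endothelial markers summed to 398 to 540.4 CPM in BERKO and 206 to 427 CPM in WT mice (6 of 7 positive), meningeal fibroblast markers to 6817 to 12040 CPM in BERKO and 2112 to 9826 CPM in WT mice (8 of 9 positive), and blood markers to 10.7 to 54.8 CPM in BERKO and 6.95 to 54.8 CPM in WT mice, with the 4 globin genes of the list at 0. The part of cell makeup in the differences of the synaptic genes was not tested.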

How the data were processed

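Build mm9, Bowtie and TopHat2 2.0.12 are named in the submitters' processing notes, and the sources used here do not state how reads were filtered or features drawn. Whole-number counts of reads per feature were deposited, with a second table of ratios. Each deposited ratio equals the count divided by the spike-in reads of that library. The deposited annotation gives each feature's position. BERKO replicate 1 was not analysed here, and the values of 2 members are not reported. The labels give the mouse, and column names were matched to it by their final digit. Correlations of right and left biopsies of a mouse in their deviations from the group means ran from -0.129 to 0.363 and do not settle this reading.

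All 64 columns were mapped, lanes were summed (1 lane for the left biopsy of BERKO replicate 5, 3 for the others), and features with 1 symbol were summed per gene. Tests were two-sided, with the mouse as replicate, in edgeR 4.0.16 (R 4.3.3; TMM, default filter, robust quasi-likelihood, Benjamini-Hochberg over all genes, threshold 0.05). SE is the log2 fold change over the root of F. Right against left used the mouse as a block. Fits on start, 3' UTR and single features kept the gene-level library scale. TMM factors were 0.950 to 1.09, with a common biological coefficient of variation of 36.7%. DESeq2 1.42.0 and limma 3.58.1 served as alternatives. On simulated data with 100 changed genes, the genotype fit on 9211 genes recovered 28% of 2-fold and 100% of 4-fold changes. It made 6 false calls at either size. P-values of the genotype fits measure the spread between mice. The side, genotype by side and class interaction fits hold the mouse as a block. Their p-values rest on how differences within a mouse vary.

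The members and gene lists were chosen with earlier results of these data known. Members were named by this rule: unadjusted p under 0.05 for genotype, the 10 most abundant, the top of each role group, the 5 lowest p for side and for the interaction, and those with 0 reads; of each pathway list, up to 3 genes by p. Others were chosen after their values were seen. Shared stretches are of at least 100 bases at 95% identity between GENCODE transcripts. Whether the counted tags lie in these stretches was not checked. Promoter sequences are from RefSeq (GRCm38.p6).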

Additional observations from a re-analysis of the deposited data

Results flagged for a closer look

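Of 48 groups of mice examined for the named members, 3 held a mouse far from the others, where chance gives about 1 in 20. Cplx2 in WT replicate 3 had 1453 CPM, while the other WT mice had 2163 to 2356 CPM. Rims1 in WT replicate 3 had 62.8 CPM, against 22.3 CPM in the next WT mouse, with all of its reads in introns. That value came from the right biopsy (90.8 CPM, against 26.9 CPM in the left), which had 3.96% of all its reads in introns, against 1.63 to 2.45% in the other biopsies. Syt17 in WT replicate 1 had 79.5 CPM, against 22.6 CPM in the next WT mouse.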

How the results depend on the processing

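For whole genes, no member passed the threshold in edgeR or limma under any alternative, and Vamp2 alone passed in DESeq2 (log2 fold change 0.48, adjusted p = 0.0463; 1 member called higher, where edgeR had 0). That fit called 21 genes higher and 9 lower of the 7846 with an adjusted p. Over 24 alternatives Vamp2 ranged from 0.12 (start features alone) to 0.68, with adjusted p from 0.0463 to 0.932. The count of all genes called for genotype, 7 in the main test, was 45 with spike-in scaling, 30 with DESeq2, 2 with limma-voom, 14 with no filter, 3 with start features alone, 0 with 3' UTR features alone, 4 after thinning to the shallowest mouse, 11 with the replicate block (a fit that also leaves out WT replicate 1, without which the count was 7 with no such block), 60 with limma on the deposited ratios, and 1 (without BERKO replicate 3) to 18 (without WT replicate 4) when a mouse was left out; the cause was not tested. On the right (5 genes) it was 17 with no filter, 1 with the replicate block (6 without WT replicate 1 alone) and 0 to 6 without a mouse. On the left (0 genes) it was 22 with no filter and 0 to 1 without a mouse. For right against left (0 genes) it was 9 with no filter and 0 to 3 without a mouse.

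Signs turned for members near 0. With spike-in scaling Napa was 0.14, Napb 0.16, Stx7 0.04 and Syp 0.12, and on the deposited ratios Napa was 0.17, Napb 0.17, Nsf 0.01, Stx7 0.08 and Syp 0.19. With start features alone Snap47 was -0.19 and Syt11 -0.27, and with 3' UTR features alone Napa was 0.84, Napb 0.53, Nsf 0.35 and Syp 0.57. Without the 3 WT libraries that lie apart Cplx1 was -0.08, Snap25 -0.08 and Syt11 -0.03. When a mouse was left out, Cplx1 ran from -0.01 to 0.19, Snap25 ran from -0.05 to 0.17, Syt11 ran from -0.02 to 0.12, Napb ran from -0.12 to 0.01 and Snap47 from -0.02 to 0.12. With the replicate block Cplx1 was -0.02, Snap25 -0.04 and Syt11 -0.01, and leaving out WT replicate 1 alone gave -0.01, -0.05 and -0.02 for these genes. Equal replicate numbers of BERKO and WT mice correlated by -0.033 to 0.055. Right and left biopsies of the same mouse correlated by -0.129 to 0.363. This measure thus cannot tell whether equal numbers share more than a number. The block changed no call of a member. The 3' UTR and single-feature fits and the class interaction were added after seeing the data. Depth limits the low members, 7 of which had reads but did not pass the filter.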
